A study of Mus musculus with 6 samples.

Results

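Chromatin accessibility was examined at 10 genes that mark or act in the stem cells at the base of the mouse intestinal crypt: Lgr5, Znrf3, Rnf43, Sox9, Ascl2, Tnfrsf19, Olfm4, Smoc2, Prom1 and Lrig1. A peak was assigned to a gene when its summit, the base with the most fragments, lay in the gene body or within 50 kb of it, and 158 of the 71286 regions with a peak in the series met this rule. ATAC-seq, in which the transposase Tn5 cuts open chromatin and the cut fragments are sequenced, had been carried out on intestinal crypts of 3 WT and 3 Arid3a cKO mice. Both groups were given tamoxifen daily for 3 days, and the crypts were taken 1 month after it was begun. The cKO mice were Villin-CreERT2+/-; Arid3a fl/fl, so that the gene was deleted in the Villin-expressing epithelium and kept in stroma, and whether WT mice carried the Cre transgene is not given in the sources used here. Ages are likewise not given in the sources used here. Arid3a encodes a DNA-binding protein of the ARID family.

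Crypt base columnar cells divide throughout life and replace the epithelium, and they are held in that state by Wnt and R-spondin signals. R-spondins bind LGR receptors and remove the ubiquitin ligases RNF43 and ZNRF3 from the membrane, which leaves more Frizzled receptors to receive Wnt, and β-catenin with TCF/LEF factors then turns on target genes. ASCL2 and SOX9 are transcription factors of the crypt base, and OLFM4, SMOC2, TNFRSF19 (also called TROY), PROM1 and LRIG1 are proteins by which stem or progenitor cells of the crypt have been recognised. Crypts also hold Paneth cells, progenitors and secretory cells, so the lists describe a mixture, in which a smaller share of a cell type and less open chromatin per cell cannot be told apart.

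The sequences below lie within 100 bases of the summits of 8 peaks outside promoters, and are shown because these peaks carry most of the values that follow. The Lgr5, Znrf3 upstream and Lrig1 peaks ranked highest in their loci outside promoters. The Znrf3 intron and Tnfrsf19 peaks ranked higher in every cKO list than in any WT list, and the Sox9, Ascl2 and Rnf43 peaks ranked lower. Letters are GRCm38.p6, 5′ to 3′ on the strand of the named gene, and capitals mark matches to the 8 motifs searched.
Lgr5 intron, chr10:115505816-115506016, minus strand: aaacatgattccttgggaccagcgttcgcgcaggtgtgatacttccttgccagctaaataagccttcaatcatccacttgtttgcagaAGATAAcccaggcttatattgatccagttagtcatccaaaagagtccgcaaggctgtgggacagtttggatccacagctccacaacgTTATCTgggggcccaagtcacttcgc
Znrf3 upstream, chr11:5485719-5485919, minus strand: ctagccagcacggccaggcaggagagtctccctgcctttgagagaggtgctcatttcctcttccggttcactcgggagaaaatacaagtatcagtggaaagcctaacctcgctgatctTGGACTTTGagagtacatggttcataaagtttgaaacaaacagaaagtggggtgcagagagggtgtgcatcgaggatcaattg
Lrig1 upstream, chr6:94729918-94730118, minus strand: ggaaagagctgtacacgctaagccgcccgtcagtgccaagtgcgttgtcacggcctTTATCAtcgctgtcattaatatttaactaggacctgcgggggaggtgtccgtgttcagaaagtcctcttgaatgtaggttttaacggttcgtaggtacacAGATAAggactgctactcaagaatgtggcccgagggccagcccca
Znrf3 intron, chr11:5284113-5284313, minus strand: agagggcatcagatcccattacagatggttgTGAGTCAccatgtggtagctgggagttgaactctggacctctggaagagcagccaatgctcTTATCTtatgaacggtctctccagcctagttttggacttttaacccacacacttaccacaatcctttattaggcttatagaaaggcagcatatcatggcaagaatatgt
Tnfrsf19 upstream, chr14:61057045-61057245, minus strand: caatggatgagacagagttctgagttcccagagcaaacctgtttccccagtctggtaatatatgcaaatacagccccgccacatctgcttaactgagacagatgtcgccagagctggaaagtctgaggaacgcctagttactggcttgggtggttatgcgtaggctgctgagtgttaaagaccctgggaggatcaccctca
Sox9 downstream, chr11:112788398-112788598, plus strand: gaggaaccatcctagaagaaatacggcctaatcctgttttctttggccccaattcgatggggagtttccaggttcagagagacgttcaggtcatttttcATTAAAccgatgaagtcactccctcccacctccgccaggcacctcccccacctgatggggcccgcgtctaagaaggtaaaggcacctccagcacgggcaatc
Ascl2 downstream, chr7:142927376-142927576, minus strand: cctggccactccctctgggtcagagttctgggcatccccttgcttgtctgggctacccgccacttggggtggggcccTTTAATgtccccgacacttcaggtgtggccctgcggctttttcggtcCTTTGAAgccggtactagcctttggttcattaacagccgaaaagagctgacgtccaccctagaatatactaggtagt
Rnf43 intron, chr11:87689560-87689760, plus strand: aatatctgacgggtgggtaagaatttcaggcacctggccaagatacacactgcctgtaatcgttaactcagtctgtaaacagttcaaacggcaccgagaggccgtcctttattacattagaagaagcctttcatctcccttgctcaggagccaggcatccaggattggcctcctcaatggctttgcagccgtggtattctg
The capitals are GATA sites in the Lgr5 and Lrig1 peaks, an HNF4 site in the Znrf3 upstream peak, an AP-1 site followed by a GATA site in the Znrf3 intron peak, an ARID3 site in the Sox9 peak, and an ARID3 then a TCF/LEF site in the Ascl2 peak. The Tnfrsf19 and Rnf43 windows held none of the motifs.

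A peak covered an annotated transcription start of all 10 genes in all 6 samples. In the Lgr5 peak the consensus summit lay 103 bases inside the nearest start, and at Olfm4 the peak sat on an internal start 16.2 kb from the 5′ end of the gene body, 25 bases past the start at chr14:80000251. The 150 bases before the start were searched for motifs at the 7 genes where this window was free of exons. Lgr5, Smoc2 and Prom1 were not searched in this way. The windows of Olfm4, Ascl2, Rnf43, Znrf3 and Lrig1 held none of the motifs. Those of Sox9 and Tnfrsf19, in which a motif was found, are shown.
Sox9 promoter, chr11:112782074-112782223, plus strand: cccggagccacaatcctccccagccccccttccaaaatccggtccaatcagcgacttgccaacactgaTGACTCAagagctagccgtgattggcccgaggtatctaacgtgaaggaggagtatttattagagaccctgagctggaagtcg
Tnfrsf19 promoter, chr14:61046491-61046640, minus strand: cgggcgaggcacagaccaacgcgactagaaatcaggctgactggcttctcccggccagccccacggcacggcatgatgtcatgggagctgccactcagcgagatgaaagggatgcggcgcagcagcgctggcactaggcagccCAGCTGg
The capitals mark an AP-1 site in the Sox9 promoter and an E-box, the letters ASCL2 is known to bind, in the Tnfrsf19 promoter. Over the 150 bases before the 5′ end of 21938 protein-coding genes, 2.43% held the AP-1 letters and 7.92% the E-box.

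The 6 lists held 40492 to 58297 peaks, and the coverage inferred from the caller's background was 1.75 to 2.29 fragments per base, lowest in cKO 2 and highest in cKO 1. Total read numbers were not used here, so the depth behind a value is this estimate. Among markers of other cells, a peak lay over a start in all 6 lists for 7 of 8 genes of the intestinal epithelium (Krt20 had it in 1), 0 of 6 of leukocytes, 2 of 5 of fibroblasts and muscle (Col1a1 and Pdgfra), 0 of 3 of endothelium (Kdr in 5 lists) and 1 of 3 of neurons and glia (Gfap). Accessibility at a start does not require expression, and the part of other cells in the results was not tested. The Arid3a promoter had a peak in all 6 lists, which does not check the deletion, since the promoter may lie outside the deleted part.

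The number of peaks at these loci overlapped between the genotypes. WT 1, 2 and 3 had 95, 106 and 126 peaks in the 10 loci, and cKO 1, 2 and 3 had 128, 112 and 112. The means were 109 ± 15.7 in WT and 117.3 ± 9.24 in cKO (SD, n = 3), a difference of 8.33 peaks that was smaller than the spread between WT samples. It was 1.33 peaks without WT 1, 3 without cKO 1, 16.8 without WT 3 and 1.67 with every list cut to the same length. As a share of the list, the loci took 0.209% to 0.235% in WT and 0.218% to 0.241% in cKO. For single samples the 95% Wilson interval ran from 0.192% to 0.287% in WT 1 and from 0.201% to 0.290% in cKO 2, the highest shares of their groups, and covers counting error only.

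Lrig1, a restrainer of ErbB signalling, had the most peaks. WT 1, 2 and 3 had 15, 19 and 26 peaks there, and cKO 1, 2 and 3 had 20, 21 and 22, so that all cKO counts lay inside the WT range. At Rnf43 the WT samples had 16, 16 and 17 peaks and the cKO samples 19, 15 and 19. At Znrf3 the WT samples had 10, 16 and 17 peaks and the cKO samples 18, 13 and 17, with WT 1, the shortest list, lowest. The smallest counts were at Tnfrsf19, a receptor of the TNF family, with 4 to 6 peaks in each group, and at Lgr5, with 4, 5 and 7 peaks in WT and 9, 5 and 6 in cKO. Sox9 was the only locus with a lower mean in cKO: 8 peaks in each WT sample against 7, 8 and 7. No locus had counts that did not overlap between genotypes, and exact two-sided permutation p-values ran from 0.4 to 1, where 0.1 is the smallest that 3 against 3 allows. Over 21938 protein-coding genes with the same 50 kb flanks, all cKO counts lay above all WT counts at 1.15% and below at 0.428%.

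**Figure D1:**
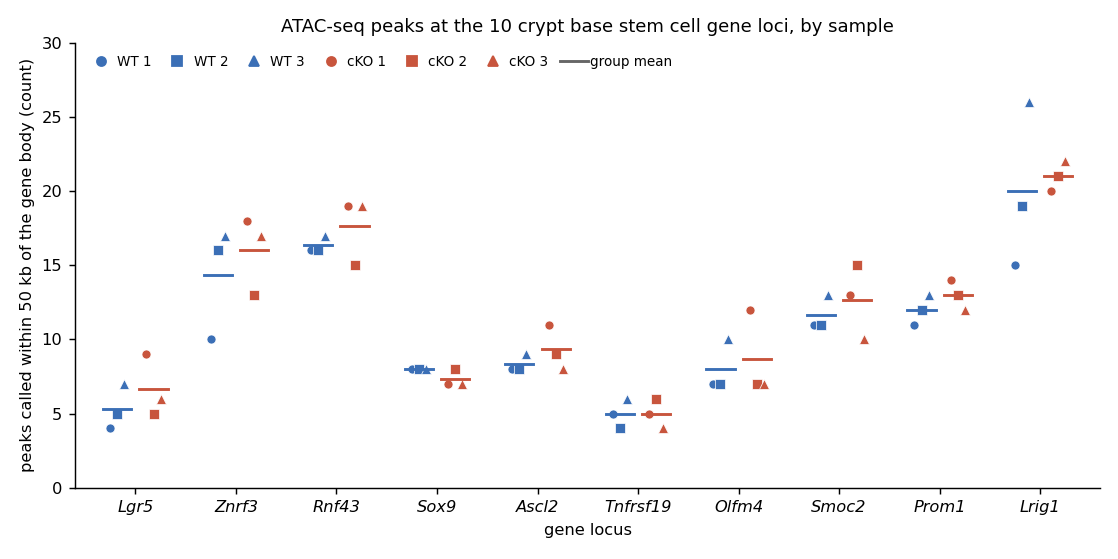
Number of ATAC-seq peaks whose summit lay in the gene body or within 50 kb of it (vertical axis, count) at each of the 10 gene loci (horizontal axis). Points are samples, blue for WT and red for cKO, and bars are group means. The counts of WT and cKO overlap at every locus, and the WT samples of Lrig1 spread from 15 to 26.

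Per length the order was different. Lrig1 had 15.3 regions per 100 kb of locus and Rnf43 13.9, followed by Ascl2 with 11.7, whereas Lgr5 had 4.21 and Tnfrsf19 3.83. Of the 158 regions, 80 had a peak in all 6 lists, 40 in 2 to 5 lists and 38 in 1 only. The share in all 6 was 50.6%, against 45.9% over all regions of the series. By position, 14 regions were promoters of the 10 genes, 68 lay in their introns, 39 between genes, 24 in introns and 2 in exons of other genes, and 11 at promoters of other genes. A peak was called in all 6 lists for 12 of the 14 promoters but for 27 of the 68 intronic regions and 21 of the 39 between genes.

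A single region was called in every cKO list and in no WT list. It lay in an intron of Znrf3, 18.5 kb from the 5′ end of the gene (peak chr11:5425983-5426639), and piled up 19, 12 and 19 fragments in cKO 1, 2 and 3. Its folds over local background were 4.11, 3.66 and 3.99, and it ranked near the bottom of each cKO list, at the 12.8 to 20.9 percentile. Absence from the WT lists means that no peak passed the caller's threshold there, and the WT coverage at the site was not analysed here. Over the series 331 of 71286 regions (0.464%) had this pattern. The opposite pattern, a peak in every WT list and in no cKO list, was found at 0 of the 158 regions and at 0.111% of all regions.

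For the 80 regions with a peak in every list, the fold of the pileup at the summit over the local background was converted to a percentile rank within the sample's own list, so that 100 is the highest fold of that list and a difference is in percentage points. Ranks also depend on how many weak peaks a list holds: the median rank of the 32748 regions called in all 6 lists was 59.3 in WT 1, the shortest list, and 64.3 to 69.9 in the other 5. The median rank of the 80 regions was 53.3 in WT 1 and 57.7 to 61.7 in the others, below the median of all such regions in every list. Agreement of ranks between lists did not follow genotype throughout. The Spearman correlation of cKO 2 was 0.883, 0.910 and 0.902 with WT 1, 2 and 3, but 0.819 with cKO 1 and 0.841 with cKO 3.

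The promoter peaks of the 10 genes covered a wide range of ranks. Among the promoters with a peak in all 6 lists, Tnfrsf19 ranked above 78.9% and Rnf43 above 67.6%. Znrf3 ranked above 50.2%, Lrig1 above 47.5%, Lgr5 above 40.3%, Smoc2 above 33.6% and Olfm4 above 31.8%. The lowest were Sox9, above 14.1%, Ascl2, above 11.5%, and Prom1, above 10.1%. Ranks of neighbours in this order overlapped between samples, as Znrf3 (67.8 to 88.9) and Lrig1 (61.0 to 89.9) show.

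At Lgr5 the ranks of the genotypes overlapped in both peaks described here. The promoter peak of this R-spondin receptor gene ranked at 69.6, 81.1 and 72.3 in WT and at 77.6, 78.6 and 68.7 in cKO, so the groups overlapped and their means differed by 0.63 points (limma SE 5.66, adjusted p = 0.983). The peak of highest rank outside promoters at this locus lay in an intron of Lgr5, 81.9 kb from the 5′ end (chr10:115505164-115506763, with the GATA sites printed above). It ranked at 81.8, 89.6 and 84.7 in WT and at 84.4, 77.7 and 88.7 in cKO, a difference of -1.78 points (SE 3.79, limma adjusted p = 0.907). Both peaks therefore differed between genotypes by less than the samples of a genotype differed among themselves.

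The Znrf3 promoter peak was the only one of the 10 promoter peaks whose ranks did not overlap between genotypes. Of all 13242 promoters with a peak in every list, 8.87% ranked lower in every cKO list and 3.39% higher, so 1 of 10 was near that share. Its ranks were 88.5, 88.9 and 81.9 in WT and 74.8, 81.6 and 67.8 in cKO, so every cKO sample lay below every WT sample. The highest cKO rank and the lowest WT rank were 81.6 and 81.9, and the mean difference was -11.7 points (SE 4.64, limma unadjusted p = 0.0312, adjusted p = 0.771, exact permutation p = 0.1). The corresponding folds were 10.1, 13.0 and 10.7 in WT and 8.99, 10.2 and 7.56 in cKO, with pileups of 81, 154 and 164 fragments in WT and 212, 104 and 125 in cKO. Pileups, which are not scaled for depth, did not separate the groups.

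Within the Znrf3 gene body an intronic peak went the other way. It lay 161 kb from the 5′ end of the gene (chr11:5283717-5284657) and ranked at 39.7, 48.3 and 37.7 in WT and at 79.7, 54.1 and 79.98 in cKO. All cKO samples lay above all WT samples, cKO 2 least so, and the difference of 29.3 points was the highest of the 80 regions (SE 9.48, limma unadjusted p = 0.012, adjusted p = 0.771). Summit pileups were 18, 23 and 20 fragments in WT and 47, 21 and 37 in cKO, with cKO 2 inside the WT range. Of the 201 bases printed above, 48.3% are marked as repeats in the reference, which was the highest share among the 27 windows examined in this way. The peak of highest rank upstream of Znrf3, 41.0 kb from its 5′ end and holding the HNF4 site, ranked at 72.9, 65.6 and 77.8 in WT and at 76.3, 75.8 and 92.9 in cKO, and the groups overlapped.

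Rnf43 encodes the second of the paired ubiquitin ligases. Its promoter peak ranked at 80.6, 94.7 and 89.99 in WT and at 86.1, 91.7 and 89.0 in cKO, with means that differed by 0.56 points. An intronic peak 26.9 kb into the gene (chr11:87688062-87690753) ranked at 68.4, 55.9 and 50.6 in WT and at 35.4, 39.8 and 39.4 in cKO. Every cKO sample lay below every WT sample, and the difference of -20.1 points was the largest in this direction among the peaks that separated the groups (SE 8.34, limma adjusted p = 0.771). Its folds were 6.89, 6.80 and 6.17 in WT against 5.11, 5.12 and 5.25 in cKO. Its pileups were 56, 66 and 80 in WT and 119, 48 and 106 in cKO, and the local background was 7.28, 8.86 and 12.1 fragments in WT and 22.5, 8.56 and 19.4 in cKO, so that both were high in cKO 1 and cKO 3. A neighbouring intronic peak, 39.9 kb from the 5′ end, had the lowest difference of the 80 regions, -22.2 points, but its ranks overlapped; it was singled out after its value was seen. The peak of highest rank outside promoters lay 23.3 kb upstream in an intron of Hsf5 and ranked at 80.7, 88.4 and 94.2 in WT and at 98.4, 94.96 and 93.6 in cKO. The promoter of Supt4a, in the same locus, ranked lower in every cKO list, by 9.0 points on average.

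The transcription factor genes Sox9 and Ascl2 had promoter peaks of low rank. The Sox9 promoter ranked at 61.1, 52.3 and 48.7 in WT and at 39.5, 53.5 and 34.3 in cKO, and cKO 2 lay within the WT range (difference -11.6 points, SE 8.74, limma adjusted p = 0.772). A peak 6.27 kb from the start, just past the end of the gene (chr11:112787969-112788814), ranked at 41.1, 35.7 and 38.9 in WT and at 17.8, 23.9 and 22.0 in cKO, with no overlap (difference -17.4 points, SE 6.22, limma unadjusted p = 0.02, adjusted p = 0.771). This is the window with the ARID3 site at its summit. The Sox9 peak of highest rank outside promoters, 29.1 kb from the start, ranked at 82.4, 76.1 and 71.1 in WT and at 66.4, 66.5 and 79.998 in cKO, and the groups overlapped.

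The Ascl2 promoter ranked at 52.6, 40.5 and 42.5 in WT and at 36.0, 55.6 and 37.9 in cKO, a difference of -2.04 points with cKO 2 the highest of all 6 samples. Downstream, 2 peaks had lower ranks in every cKO list. The peak 41.8 kb from the 5′ end, in an intron of Th (chr7:142926974-142929088), ranked at 46.7, 41.6 and 51.4 in WT and at 33.5, 15.2 and 35.8 in cKO, a difference of -18.4 points (SE 8.27, limma adjusted p = 0.771). The peak 33.3 kb from the 5′ end ranked at 54.6, 63.2 and 67.3 in WT and at 48.9, 48.4 and 34.8 in cKO, a difference of -17.6 points (SE 8.47, limma adjusted p = 0.771). A peak between them, 36.7 kb from the 5′ end, had a higher mean in cKO, by 14.0 points. It ranked at 10.1, 34.5 and 39.7 in WT and at 41.6, 57.6 and 27.1 in cKO, with overlap, and was added after its value was seen. The peak of highest rank outside promoters, in an intron of Tspan32os, overlapped between groups, from 50.9 to 61.1 in WT and from 58.7 to 61.8 in cKO.

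**Figure D2:**
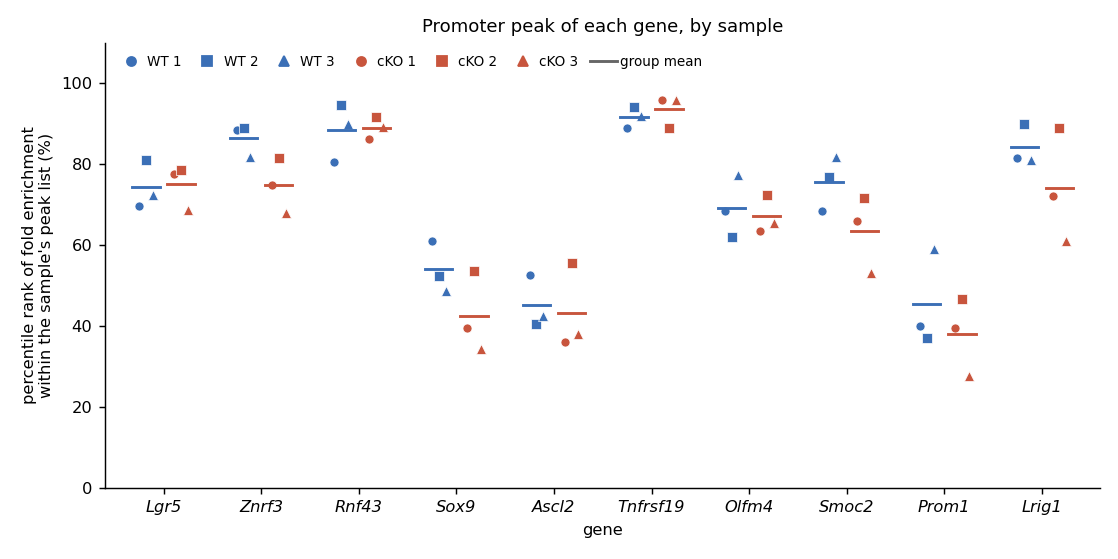
Percentile rank of the promoter peak of each gene within the peak list of its sample (vertical axis, 100 is the highest fold over local background; horizontal axis, gene). Points are samples, blue for WT and red for cKO, and bars are group means; the Znrf3 ranks of cKO (67.8 to 81.6) lie below those of WT (81.9 to 88.9), and the groups overlap at the other 9 genes.

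Among the markers, Tnfrsf19 had the promoter of highest rank: 88.8, 94.1 and 92.0 in WT and 96.0, 89.0 and 95.9 in cKO, a difference of 1.99 points. A peak 10.7 kb upstream, in an intron of Gm41168, ranked at 29.1, 54.0 and 43.0 in WT and at 56.6, 55.5 and 75.7 in cKO. The groups did not overlap, although WT 2 and cKO 2 lay close together, and the mean difference was 20.6 points (SE 9.85, limma adjusted p = 0.771). All 4 regions of this locus with a peak in every list had higher mean ranks in cKO, as did 16156 of the 32748 such regions of the series.

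Olfm4, which encodes a secreted glycoprotein of the crypt base, had a promoter peak at 68.5, 62.1 and 77.2 in WT and at 63.4, 72.4 and 65.5 in cKO. The groups overlapped, with a difference of -2.14 points (SE 6.87, limma adjusted p = 0.94). A peak between genes, 55.9 kb from the 5′ end and beyond the 3′ end, ranked at 52.2, 79.9 and 78.1 in WT and at 91.0, 81.0 and 84.5 in cKO. All cKO ranks were higher, but WT 1 lay far below the other WT samples and the difference of 15.4 points (SE 7.37, limma adjusted p = 0.771) was 6.47 points without WT 1. On the other side of the gene, a peak lay in an intron of Gm6999, 2.49 kb upstream of the 5′ end of the gene body. That end is itself 16.2 kb from the promoter peak. This upstream peak ranked at 39.2, 37.6 and 54.0 in WT and at 37.2, 24.6 and 29.3 in cKO. The groups did not overlap, although WT 2 and cKO 1 lay close together, and the difference was -13.3 points by fold (SE 7.99, limma adjusted p = 0.771) but 0.593 points when peaks were ranked by −log10 q.

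Smoc2, which encodes a matricellular calcium-binding protein, had a promoter peak at 68.5, 76.8 and 81.7 in WT and at 65.9, 71.5 and 53.0 in cKO. The groups overlapped, and the difference was -12.2 points (SE 7.21, limma adjusted p = 0.771). A peak 29.2 kb upstream ranked lower in every cKO list, at 43.1 to 49.4 against 50.01 to 56.2, and the peak of highest rank outside promoters, 6.0 kb upstream, ranked at 40.9, 74.1 and 84.6 in WT and at 83.8, 76.2 and 84.1 in cKO, where WT 1 again stood apart. The region of this locus with the highest difference, 26.2 points, overlapped between the groups.

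The pentaspan membrane protein gene Prom1 had a promoter peak at 39.9, 37.1 and 59.1 in WT and at 39.4, 46.7 and 27.6 in cKO. The peak of highest rank outside promoters at this locus lay 154 kb from the 5′ end in an exon shared by Gm43183 and Gm43184, and ranked at 83.3, 93.4 and 94.1 in WT and at 86.6, 94.1 and 81.1 in cKO, with overlap. The promoter of Fgfbp1 in the Prom1 locus ranked lower in every cKO list, at 64.8 to 68.0 against 69.2 to 75.7. Lrig1 had a promoter peak at 81.5, 89.9 and 81.1 in WT and at 72.1, 88.9 and 61.0 in cKO, a difference of -10.1 points (SE 6.78, limma adjusted p = 0.771) with cKO 2 again inside the WT range. The Lrig1 peak with paired GATA sites, 29.9 kb upstream, ranked at 87.1, 87.1 and 95.9 in WT and at 86.5, 83.7 and 88.4 in cKO. A weak intronic peak 64.7 kb into Lrig1 ranked at 23.4, 20.2 and 10.5 in WT and at 8.97, 4.5 and 7.27 in cKO, with no overlap.

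**Figure D3:**
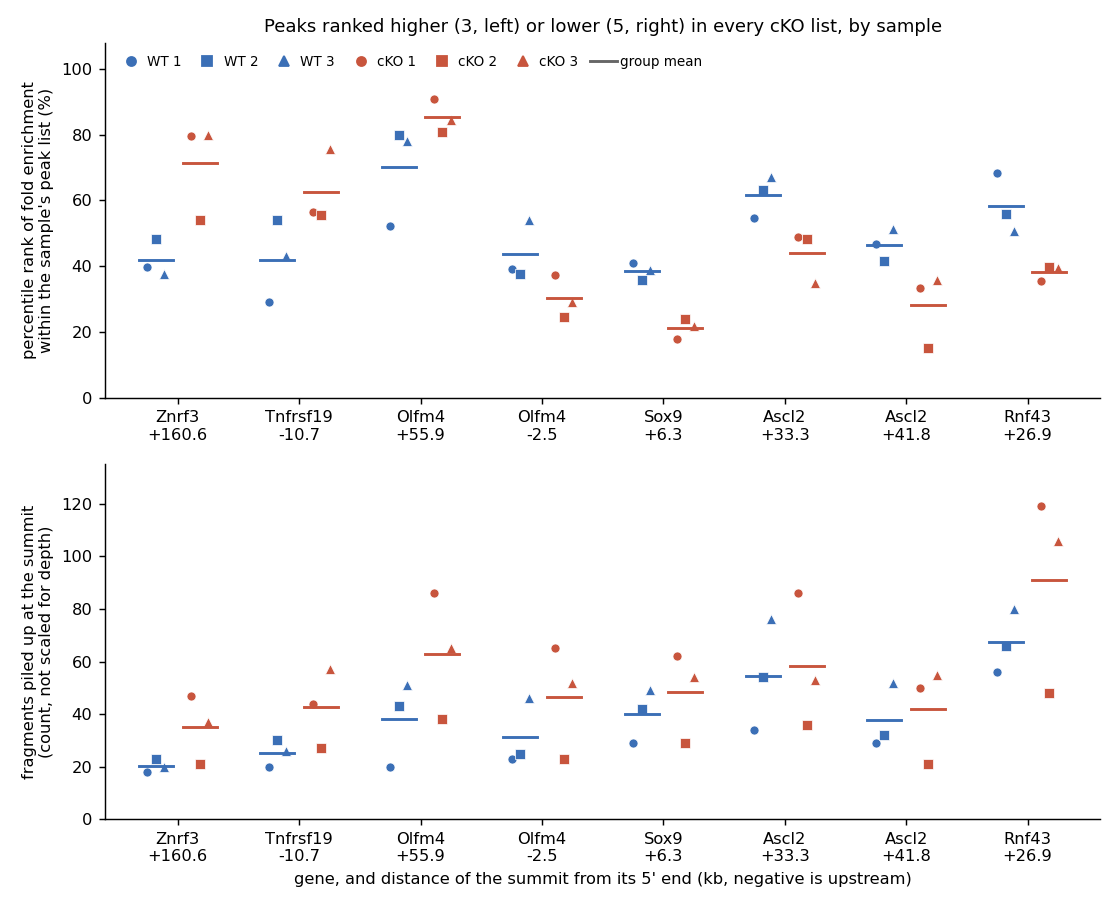
Percentile rank (upper plot) and unscaled number of fragments at the summit (lower plot) of the 3 peaks ranked higher and the 5 peaks with the largest differences among those ranked lower in every cKO list. The horizontal axis gives the gene and the distance of the summit from its 5′ end in kb; points are samples, blue for WT and red for cKO, and bars are group means. The ranks of the groups do not overlap in the upper plot, whereas the pileups overlap in every column of the lower plot.

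Over the 80 regions, 3 ranked higher in every cKO list than in any WT list (3.75%, against 4.66% of all 32748 regions) and 10 ranked lower (12.5%, against 7.04% of all). By fold, 34 of the 80 had a higher mean in cKO and 46 a lower mean (57.5% lower, against 50.7% of all regions). The median difference was -1.80 points, against -0.0947 over all regions. This direction depended on the quantity: with peaks ranked by −log10 q, 7 regions were higher and 0 lower in every cKO list (8.75% and 0%, against 6.72% and 2.24% of all regions), and the median was 2.78 points, against 1.64 over all regions. With centred log2 pileups 8 were higher and 4 lower (10% and 5%, against 4.61% and 7.33% of all). By fold the median was -0.611 points without WT 3 (0.933 over all regions) and -0.667 without WT 2 (0.340 over all), and the lowest value without a sample was -2.60, without cKO 2 (0.388 over all). Leaving out a sample gave 15 to 35 regions that did not overlap in place of 13, since fewer samples have to be in order. Without cKO 2, 9 of 83 regions were higher and 26 lower (10.8% and 31.3%, against 17.3% and 20.9% of all), and without WT 3, 7 of 80 were higher and 14 lower (8.75% and 17.5%, against 13.2% and 10.9% of all). The limma fit called 0 of the 80 regions, with adjusted p-values from 0.771 to 0.999, and 0% of all regions. At an unadjusted p below 0.05 there were 8 of 80, against 5.73% of all.

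**Figure D4:**
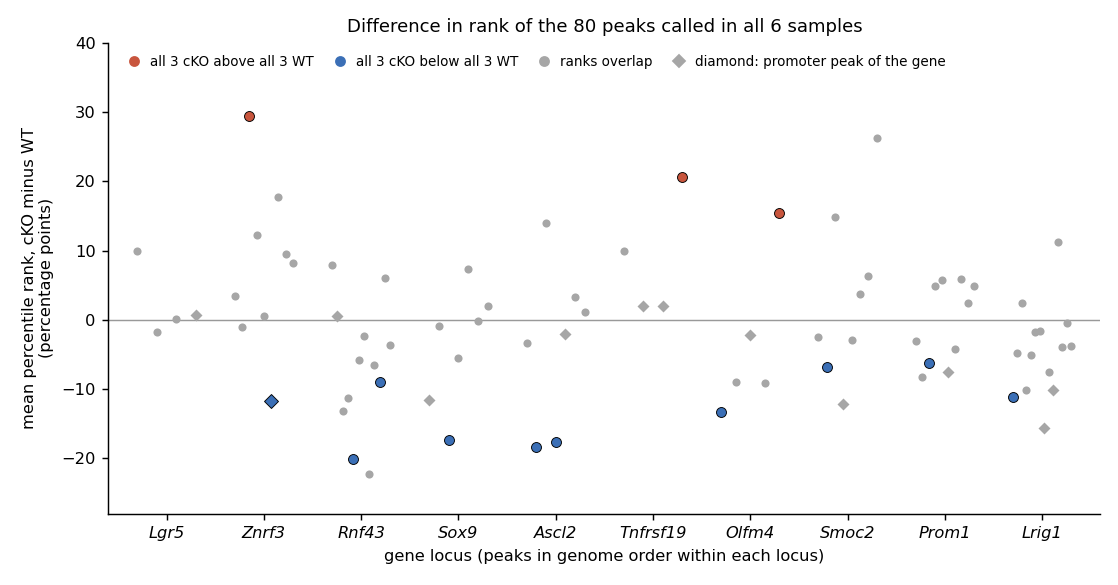
Difference in mean percentile rank, cKO minus WT, in percentage points (vertical axis) for the 80 regions with a peak in all 6 samples, by gene locus and in genome order within each locus (horizontal axis). Each point is a region and diamonds are promoters of the 10 genes; red marks the 3 regions with all cKO ranks above all WT ranks, blue the 10 with all below, and grey those whose ranks overlap.

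At the locus level, the regions leaned in different directions. By fold, 12 of 14 regions at Lrig1 and 9 of 12 at Rnf43 had lower means in cKO, and their median differences were -4.34 and -6.13 points. Over all regions of the series 50.7% had a lower mean in cKO. Regions of 1 locus are neighbours, so their directions may not be independent of each other. At Znrf3 7 of 9 regions had higher means, with a median of 8.16 points, although its promoter was lower. At Prom1 5 regions were higher and 5 lower, and at Smoc2 4 and 4. Over the 10 promoter peaks the median difference was -4.82 points, with 7 lower and 3 higher means, against -1.17 over all 13242 promoters. Of all promoters, 8.87% ranked lower in every cKO list and 3.39% higher. By −log10 q the Sox9, Ascl2, Olfm4 and Prom1 promoters had higher means in cKO, by 0.627, 5.53, 3.50 and 3.24 points. The medians at these regions moved with the libraries: over the 80 regions the median pileup was 31.5, 46.5 and 59.5 fragments in WT and 86, 39 and 65 in cKO, and the median local background 5.12, 6.05 and 7.70 in WT and 11.97, 5.38 and 9.89 in cKO. Its part in the ranks was not tested.

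The 16 other genes of the crypt base and of Wnt signalling that were examined for comparison (Axin2, Ephb2, Ephb3, Cd44, Msi1, Slc12a2, Cdca7, Mex3a, Rgmb, Nkd1, Notum, Lgr4, Soat1, Igfbp4, Cdk6 and Nrn1) were described in the same way. A peak covered a start in all 6 lists at 15 of them, all but Mex3a. Of their 249 regions, 113 had a peak in every list. Of these, 2 ranked higher in every cKO list (1.77%, against 4.66% of all regions) and 12 lower (10.6%, against 7.04% of all). The median difference was -2.37 points, against -0.0947 over all regions. Limma called 0 of the 113, with 9 at an unadjusted p below 0.05, which 5.73% of all regions reached. The lower regions were spread over 8 genes, among them Axin2, a negative regulator of Wnt signalling, Cd44, Mex3a and Rgmb with 2 each, and the higher ones were at Notum and Cdk6.

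Motifs were counted within 100 bases of the consensus summits, on both strands. GATA letters (AGATAA or TGATAA, or either with G as the last letter) were in 52 of the 158 windows (32.9%, against 30.2% of all 71286 windows), and ARID3 letters (ATCAAA or ATTAAA) in 28 (17.7% against 16.1%). TCF/LEF letters (CTTTGAT or CTTTGAA) were in 18 (11.4% against 8.05%), and every CTTTGAT holds the ARID3 letters ATCAAA on its other strand. The E-box CAGCTG was in 18 (11.4% against 14.2%), the CDX letters TTTATNG in 14 (8.86% against 11.4%), AP-1 letters (TGACTCA or TGAGTCA) in 8 (5.06% against 8.10%), KLF letters (GGGTGTGG or GGGCGTGG) in 8 (5.06% against 7.01%) and HNF4 letters (CAAAGTCCA or CAAAGTTCA) in 6 (3.80% against 2.51%). Of the 10 windows that ranked lower in every cKO list, 3 held ARID3, 2 TCF/LEF, 2 KLF and 1 CDX letters; of the 3 that ranked higher, 2 held GATA and 1 AP-1 letters. Over the whole series the order was the reverse for ARID3 letters, in 9.68% of the regions that ranked lower and 18.3% of those that ranked higher, and for TCF/LEF letters, in 5.25% and 8.79%. GATA letters were in 19.6% and 31.5%, CDX letters in 9.33% and 12.1%, KLF letters in 9.94% and 5.51%, and AP-1 letters in 10.5% and 5.44%. The mean A+T content was 43.9% in the former and 53.6% in the latter, against 47.4% over the 80. Over the whole series, the regions that ranked lower had 40.4% A+T and those that ranked higher 46.7%, so base composition moved with the direction of rank; its part in the motif counts was not tested.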

How the data were processed

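Intestinal crypt cells of 3 WT and 3 cKO mice had been profiled by ATAC-seq. In the nf-core pipeline the authors trimmed adapters with Trim Galore, aligned to GRCm38 with BWA, removed blacklisted regions and called peaks with MACS in each sample, with an effective genome size of 2.6 Gb and no input control. Their annotation was Ensembl 95, and the submitters' processing notes name MACS2 and bedtools.

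A deposited list gives position, score, fold, −log10 p, −log10 q and summit offset for each peak. The score of the authors equals −log10 q multiplied by 10, without decimals, and was not tested. In the deposited lists fold is the ratio of summit pileup to local background, while −log10 q and −log10 p were computed from a Poisson model by the authors' caller. The lists hold no read counts per region, so a count model could not be used.

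Peaks of the nuclear chromosomes (1 to 19, X, Y) were merged across lists when they shared at least 1 base, and the peak of highest fold per list was taken. Fold was ranked within each list as a percentile. Regions with a peak in all 6 lists were fitted with limma 3.58.1 (R 4.3.3, with intensity trend), and p-values were adjusted over all of them by the Benjamini-Hochberg method. Single values were compared by exact two-sided permutation. A region was called a promoter where a summit of any list lay from 1000 bases before to 100 bases after an annotated start (GENCODE M21). A peak over a start was counted for markers and companion genes as well; this was chosen after the values were seen. Summit pileup and local background were solved from fold and p, and for 100% of peaks in every list a whole pileup gave −log10 p to within the rounding of both columns plus 2e-05. Motifs were searched in 201 bases of GRCm38.p6. The sequences of some windows are not reported here.

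On simulated data limma recovered 51 of 200 regions shifted by 30 points among 32748, with the right sign in 200. The simulated noise was independent between regions and ranks were not kept within their limits. The recovery in the real lists may therefore differ. The labels do not state that replicates came from separate litters or batches, and p-values measure the spread between these samples. Members, lists and motifs were chosen with earlier results of these data known. The named peaks were the promoter peak, the peak of highest mean rank outside promoters, peaks of 1 genotype, peaks called by limma, and up to 5 largest differences each way among peaks whose genotypes did not overlap. Other non-overlapping peaks were named after their values were seen. Python 3.11.15, numpy 2.4.6, pandas 2.3.3, scipy 1.17.1 and matplotlib 3.10.9 were used. Alternatives were other ranked quantities, other flanks, summit windows, stricter q, equal list lengths, a replicate block and leaving out each sample.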

Additional observations from a re-analysis of the deposited data

How the results depend on the processing

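Of 502 alternative values for 42 results, 460 were labelled the same, most for staying within the spread between replicates or 1.5 times the count. For peaks in log2 units the label required that overlap or non-overlap was unchanged. Direction was checked only for peaks whose genotypes did not overlap, so small values could change sign. The Lrig1 difference in peak count was 1 in the main run and -1.5 without WT 1. The Lgr5 promoter difference kept its direction in 6 of 13 alternatives. The median difference over the 80 regions, -1.80 points by fold and -2.60 to -0.611 when a sample was left out, was 2.78 points by rank of −log10 q (1.64 over all regions), -0.085 with centred log2 fold and 0.060 with centred log2 pileup, the latter both in log2 units. The 13 regions whose genotypes did not overlap became 7 of 80 by rank of −log10 q (all higher, 8.75% against 6.72% of all regions), and 15 to 35 when a sample was left out: 35 of 83 without cKO 2 (10.8% higher and 31.3% lower, against 17.3% and 20.9% of all) and 21 of 80 without WT 3 (8.75% and 17.5%, against 13.2% and 10.9%). The peak 2.49 kb upstream of the Olfm4 gene body turned to 0.593 points by −log10 q and to 0.152 (log2 units) by pileup. Leaving out a sample cannot end a separation. Among the 7 other settings the Znrf3 promoter stayed separated in 2, the Znrf3 intronic peak in 6 and the downstream Olfm4 peak in 7. The upstream Olfm4 peak did so in 4, and the Rnf43 intronic, Sox9 downstream and Ascl2 33.3 kb peaks in 5 each. The upstream Tnfrsf19 and Ascl2 41.8 kb peaks had values in 6 of these settings and stayed separated in 3. A block for the replicate number left the count of limma calls at 0. Same-numbered deviations correlated at -0.298, -0.0284 and 0.134, which cannot show whether same-numbered samples shared a litter or batch, and the labels do not state it. Limma called 0 of the regions of these loci in every alternative run. At an unadjusted p below 0.05 there were 0 of 80 without cKO 1, where 909 of all 32856 regions passed. The highest count was 10 of 80 without WT 3, where 2565 of all 32899 passed. With centred pileups limma called 24 regions of the whole series. Fold is relative to the local background, but with 1 added to both terms it also depends on depth, as −log10 q and pileup do. Why the quantities differed was not tested.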

Other observations

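The deposited lists hold peaks and no read coverage between them, so a region without a peak in a sample has no value there, and 78 of the 158 regions entered no comparison of ranks. With 3 samples in each group no exact test can give a p under 0.1. In the simulation that shifted 200 regions by 30 points, more than any difference at these loci, limma called 51, with noise simpler than that of the real lists. Distance to a gene does not show that a region acts on it.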
